A study of Mus musculus with 20 samples.

Results

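The genes described here are 8 members of the Slc22 family of solute carriers, Slc22a5, Slc22a7, Slc22a19, Slc22a26, Slc22a27, Slc22a28, Slc22a29 and Slc22a30, chosen by symbol from the 36128 genes of the table and all listed in it. They were measured in liver RNA of 20 mice at 8 weeks of age, 5 males and 5 females of each of 2 inbred strains. B6 (C57BL/6J) is a classical laboratory strain, and CAST (CAST/EiJ) derives from wild mice of the castaneus subspecies. The authors gave levels as FPKM (fragments per kilobase of exon, scaled to the mapped fragments of the library) and also deposited the counts. B6 libraries were aligned to mm9 and CAST libraries to a copy of mm9 that carries the CAST variants, so the copy number of a gene family is that of the B6 reference in both. Reads counted on genes ranged from 15919560 to 28209823 in males and 11995146 to 14118064 in females of B6, and 7969482 to 30617667 in males and 11123291 to 35328573 in females of CAST.

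Slc22 proteins are membrane carriers that move charged metabolites, hormone conjugates and drugs between blood and epithelial cells. The organic anion transporters of the family take up anions such as urate, bile acid and steroid conjugates, mostly in kidney tubules and, for a few members, at the sinusoidal face of hepatocytes. In rodents a tandem group of related genes has expanded, which lies on chromosome 19 in the mouse. The liver makes several of its products in a sex-dependent way, under the sex-specific rhythm of growth hormone release. The label organic anion transporter does not hold for Slc22a5, which encodes OCTN2, the sodium-dependent carnitine transporter.

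The names of the CAST rows bear on the CAST values of the members whose rows change place. In the FPKM table the names follow an alphabetical order that ignores the closing mark written after each symbol. When that mark is counted as a character, 4558 of the 20570 protein-coding names take another place (Slc22a29 then precedes Slc22a2), and 897 of the 15558 lncRNA names do. For 4340 of these protein-coding names with values, log2(mean FPKM + 0.1) in CAST correlated across genes with that in B6 at r = 0.54 under the deposited labels and at r = 0.98 when the CAST rows were taken in the second order. Each of the 10 CAST livers gave the same picture, with r from 0.53 to 0.54 under the labels and from 0.97 to 0.98 in the second order. For the 16012 protein-coding names whose place is the same in both orders, r was 0.98. Genes are not independent replicates, so these are descriptions. Among protein-coding genes called for sex in B6, the CAST difference had the same direction for 31 of 51 displaced names under the labels, for 46 of 51 in the second order, and for 276 of 332 names that keep their place. The exon length implied by a row's counts and FPKM gave a different answer: in CAST it lay within 10% of the B6 length of the deposited name for 2159 of 2165 displaced names (99.7%), and of the name in the second order for 269 (12.4%). The lengths used for FPKM thus followed the deposited names, so CAST FPKM matched by order are rescaled here to the length of the matched gene. How the rows came to differ was not tested.

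Slc22a5 and Slc22a7 keep their place. The other 6 members do not: the CAST row labelled Slc22a18 belongs to Slc22a19 by the second order, Slc22a23 to Slc22a26, Slc22a26 to Slc22a27, Slc22a27 to Slc22a28, Slc22a28 to Slc22a29, and Slc22a3 to Slc22a30. Over 24 genes of the family, r between B6 and CAST was 0.14 under the labels and 0.89 in the second order. Slc22a18, a carrier encoded in an imprinted gene cluster, shows the contrast plainly. Its FPKM averaged 27.7 in B6 males and 25.9 in B6 females, 0 in both CAST groups under that label, and 44.4 and 41.6 in the CAST row matched by order. Results are therefore given in both readings, called "as labelled" and "matched by order". The second was chosen after the data were seen. Sex differences of single rows in CAST have the same values in both readings and change only the gene they are read for. Those of sums and shares over rows have other values in each reading.

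**Figure D1:**
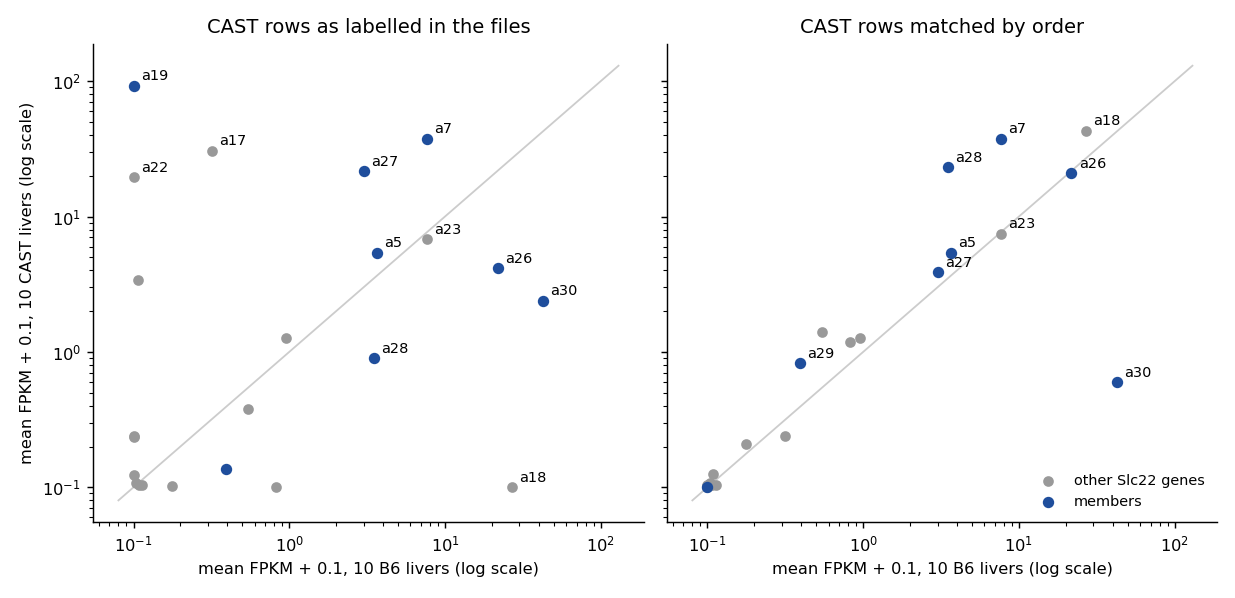
Mean FPKM + 0.1 of Slc22 genes over the 10 B6 livers (x axis) and the 10 CAST livers (y axis), both on log scales, with the CAST rows as labelled (left) and matched by order (right). Each point is 1 gene, members are blue, names are shortened to a5, a7 and so on, and the grey line marks equal values. Under the labels Slc22a19 lies at 0 FPKM in B6 against a mean above 90 in CAST, while after matching most genes lie near the line and Slc22a30 lies far below it.

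All 6 chromosome 19 members lie on the minus strand in mm9, in the order Slc22a19 (chr19:7747551-7785800), Slc22a26 (chr19:7855531-7877157), Slc22a27 (chr19:7938881-8040517), Slc22a28 (chr19:8136699-8206472), Slc22a29 (chr19:8234655-8337108) and Slc22a30 (chr19:8409861-8479601). Slc22a5 lies at chr11:53678044-53705162 and Slc22a7 at chr17:46569134-46575426, both also on the minus strand. Their coding sequences, taken from the longest annotated coding transcript of each gene, form 2 close pairs. Slc22a27 and Slc22a29 were 97.3% identical, and Slc22a28 and Slc22a30 were 98.8% identical with 20 differing bases of 1659. Between the pairs identity was 91.5 to 92.2%, and Slc22a19 and Slc22a26 were 74.1 to 75.9% identical to any chromosome 19 member. Slc22a5 and Slc22a7 shared 50.8 to 53.3% with any member.

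The sequences below show what a 50-base read has to tell the copies apart. Within the aligned coding sequences, 100 columns separate Slc22a27 and Slc22a29 from Slc22a28 and Slc22a30. Coding bases 47 to 106, the 60-base window with the most of them, hold 12, which are written in capitals.
Slc22a27: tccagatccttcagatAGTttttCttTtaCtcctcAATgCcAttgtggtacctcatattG
Slc22a29: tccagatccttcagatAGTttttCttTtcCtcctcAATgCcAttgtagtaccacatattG
Slc22a28: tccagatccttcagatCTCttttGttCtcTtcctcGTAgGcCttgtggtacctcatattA
Slc22a30: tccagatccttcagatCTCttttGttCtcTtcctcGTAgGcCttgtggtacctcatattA
In this window Slc22a28 and Slc22a30 are the same in every base. Coding bases 618 to 677 are the 60-base window in which those 2 genes differ most, and the capitals mark their 3 differing bases.
Slc22a28: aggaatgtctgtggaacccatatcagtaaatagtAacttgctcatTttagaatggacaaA
Slc22a30: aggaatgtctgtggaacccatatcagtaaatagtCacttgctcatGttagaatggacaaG
Of the distinct 50-base words in the transcript, 53.9% for Slc22a28, 51.8% for Slc22a30, 32.2% for Slc22a29 and 30.6% for Slc22a27 also occurred in a transcript of another gene, against 2.72% for Slc22a19 and 0% for Slc22a26 and Slc22a7. For Slc22a5 it was 27.1%, shared with Slc22a21 and Slc22a4. The authors kept uniquely mapped reads, so reads from such stretches could be lost or given to the other copy, and the levels of Slc22a27 to Slc22a30 are uncertain to that extent.

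RefSeq promoters (GRCm38.p6, 250 bases before to 50 after the start) were found for 7 members, not including Slc22a7. The promoters of Slc22a28 (chr19:8131933-8132232) and Slc22a30 (chr19:8405056-8405355), both on the minus strand, are shown because these close copies, matched by order, differ between the strains in opposite directions. They differed in 6 of 294 overlapping bases, in capitals.
Slc22a28: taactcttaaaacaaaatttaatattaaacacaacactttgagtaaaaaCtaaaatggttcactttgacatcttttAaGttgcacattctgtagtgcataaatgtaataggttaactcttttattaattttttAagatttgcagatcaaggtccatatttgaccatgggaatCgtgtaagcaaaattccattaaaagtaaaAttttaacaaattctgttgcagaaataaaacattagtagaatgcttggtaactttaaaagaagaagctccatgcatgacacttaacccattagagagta
Slc22a30: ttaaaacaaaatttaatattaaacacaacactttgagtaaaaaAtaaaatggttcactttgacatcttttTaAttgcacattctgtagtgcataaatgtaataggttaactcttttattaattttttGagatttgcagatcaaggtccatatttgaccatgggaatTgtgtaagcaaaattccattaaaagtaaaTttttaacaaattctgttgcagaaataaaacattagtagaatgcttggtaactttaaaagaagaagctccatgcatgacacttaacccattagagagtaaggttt
The motif TTCNNNGAA, the core that STAT proteins bind, reads the same on both strands and was searched in all promoters of this length. It was found in 2726 of 32851, or 8.30%. Of the 7 member promoters, that of Slc22a19 held 2 matches and that of Slc22a26 (chr19:7802618-7802917, minus strand, match in capitals) held 1.
Slc22a26: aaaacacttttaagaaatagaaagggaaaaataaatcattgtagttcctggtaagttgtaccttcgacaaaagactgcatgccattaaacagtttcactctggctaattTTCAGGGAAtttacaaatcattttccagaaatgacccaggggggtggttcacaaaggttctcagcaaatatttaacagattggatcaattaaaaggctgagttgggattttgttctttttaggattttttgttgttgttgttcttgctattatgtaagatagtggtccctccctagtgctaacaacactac

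Slc22a26 and Slc22a27 were called higher in females in B6 and, matched by order, in CAST, and Slc22a29 in CAST only when matched by order. Slc22a5, described further on, was also higher in females, by less than 2-fold. Slc22a26 had the largest sex difference of any member in B6. Its FPKM in the B6 males was 0.118, 0.0745, 0.0647, 0.0368 and 0.0726, from 3 to 13 reads a liver, and in the B6 females 43.4, 29.9, 48.1, 49.7 and 44.9. The groups did not overlap, and the fitted difference was -9.10 ± 0.19 on the log2 scale (male over female, SE, n = 5 per group), a 547-fold excess in females with an adjusted p of 1.62e-15 in edgeR's quasi-likelihood test. Matched by order, the CAST males had 0.491, 0.578, 0.283, 1.43 and 1.78 FPKM and the CAST females 37.2, 36.1, 43.3, 50.1 and 37.1. The CAST groups did not overlap either, and the excess in females was 51.1-fold (log2 -5.67 ± 0.33, adjusted p = 8.88e-10). In the file these values stand under the label Slc22a23, while the CAST row labelled Slc22a26 differed 40.9-fold in the same direction (log2 -5.35 ± 0.23, adjusted p = 1.14e-11).

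The strains differed in Slc22a26 where it was low. Matched by order, females had 43.2 ± 7.84 FPKM in B6 and 40.8 ± 5.96 in CAST (SD, n = 5 each), a log2 difference of -0.019 with a 95% interval from -0.49 to 0.45. Males had 0.0733 ± 0.0290 in B6 and 0.912 ± 0.653 in CAST, and every CAST male exceeded every B6 male (log2 -3.44 ± 0.43, adjusted p = 4.55e-07), a difference that fell under 2-fold in limma on log2(FPKM + 1), at -0.77. The sex difference itself differed between the strains, by -3.43 ± 0.50 on the log2 scale (adjusted p = 0.00016), and the call was lost in limma on log2(FPKM + 1), with -0.84 and an adjusted p of 0.103. As labelled, the row of that name was also higher in CAST males (log2 -1.38 ± 0.36, adjusted p = 0.00275) but lower in CAST females (2.35 ± 0.16, adjusted p = 5.45e-13). The call in males was lost in limma on log2(FPKM + 0.1), at -0.79, and on log2(FPKM + 1), at -0.16 with an adjusted p of 0.375.

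Slc22a27 was lower in level than Slc22a26 but showed the same pattern. The B6 males had 0.0675, 0.0347, 0.0724, 0.0343 and 0.0789 FPKM and the B6 females 4.97, 3.93, 4.05, 8.85 and 7.01. Every female exceeded every male, and the fitted excess was 98.8-fold (log2 -6.63 ± 0.29, adjusted p = 2.57e-11). Matched by order, CAST males had 0.0962, 0.188, 0.143, 0.318 and 0.214 and CAST females 6.73, 6.93, 6.21, 10.8 and 6.27, a 40.9-fold excess in females (adjusted p = 1.14e-11). Female 4 was the highest liver in both strains. The label Slc22a27 in the CAST table stands on a row with the opposite direction, 2.47-fold higher in males (log2 1.31 ± 0.26, adjusted p = 0.00313).

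Matched by order, Slc22a27 was higher in CAST than in B6 males (log2 -1.74 ± 0.44, adjusted p = 0.0032), at 3 to 8 reads a liver in B6 and 4 to 30 in CAST, and this call was lost in limma on log2(FPKM + 0.1), where the difference was -0.85, under 2-fold, and on log2(FPKM + 1), at -0.17 with an adjusted p of 0.492. In females the difference was -0.46, with a 95% interval from -0.85 to -0.065 and an adjusted p of 0.0661. The interaction of strain and sex was -1.28 ± 0.48 with an adjusted p of 0.206. As labelled, the row was 535-fold higher in CAST males (log2 -9.06 ± 0.42, adjusted p = 1.16e-16) and 2.20-fold higher in CAST females (log2 -1.14 ± 0.26, adjusted p = 0.000742), the latter under 2-fold in limma at either pseudocount (-0.94 and -0.85) and without CAST female 3 (-0.78).

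Slc22a29, the close copy of Slc22a27, had low levels, with a mean under 2 FPKM in every group. The B6 males had 0.0493, 0.0405, 0.858, 0.0223 and 0.0110 FPKM and the B6 females 0.324, 0.285, 0.239, 0.603 and 0.477. Male 3, with 73 reads, was higher than every female, while the other males had 2 to 6 reads. The sex difference in B6 was accordingly -1.03 ± 0.73 (adjusted p = 0.45) with all livers and -3.38 (adjusted p = 4.24e-05) without B6 male 3. That liver did not stand out in Slc22a27, for which it had 6 reads. Matched by order, CAST males had 0.0469, 0.0366, 0.0214, 0.0182 and 0.0231 FPKM and CAST females 1.39, 1.58, 0.967, 2.21 and 0.962, a 48.1-fold excess in females (log2 -5.59 ± 0.35, adjusted p = 2.08e-09) with no overlap. CAST females also exceeded B6 females, without overlap, by a log2 difference of -1.98 ± 0.53 (adjusted p = 0.00449), which fell under 2-fold in limma on log2(FPKM + 1), at -0.79. As labelled, the row of that name was instead 9.05-fold higher in B6 females (log2 3.18 ± 0.77, adjusted p = 0.00143), again under 2-fold in limma on log2(FPKM + 1), at 0.41.

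Further values of Slc22a29 moved with B6 male 3, and its strain call in males was lost in other fits too. Matched by order, the strain difference in males was 2.54 (adjusted p = 0.0365) with that liver and 0.25 (adjusted p = 0.788) without it, and the call was also lost without any one of 4 CAST males and in limma at either pseudocount. The interaction was 4.52 (adjusted p = 0.0189) with it and 2.21 (adjusted p = 0.0954) without it, and it was also not called in limma on log2(FPKM + 0.1), at 2.23 (adjusted p = 0.0745). As labelled, the CAST rows of Slc22a29 held 0 to 8 reads in males and 1 to 13 in females, with a sex difference of 0.02 ± 0.67, and the strain difference in males was 2.15 (adjusted p = 0.0493) with B6 male 3 and -0.21 (adjusted p = 0.831) without it, and the call was lost in 14 of the 20 fits that left out 1 liver. The interaction as labelled was -1.03 (adjusted p = 0.843) with that liver and -3.40 (adjusted p = 0.0207) without it.

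Slc22a28, a close copy of Slc22a30, was higher in males of B6, and of CAST when matched by order. For Slc22a28 the B6 males had 5.33, 6.80, 5.73, 6.19 and 4.78 FPKM and the B6 females 1.49, 1.39, 1.09, 0.537 and 0.645. The groups did not overlap, and males exceeded females 5.71-fold (log2 2.51 ± 0.21, adjusted p = 2.12e-07). Matched by order, the CAST males had 36.0, 35.3, 41.8, 32.2 and 22.4 and the CAST females 12.01, 12.99, 23.7, 5.99 and 8.59, a 2.47-fold excess in males (log2 1.31 ± 0.26, adjusted p = 0.00313). Here the ranges overlapped, since CAST female 3 at 23.7 was above CAST male 5 at 22.4. The CAST row labelled Slc22a28 differed in the other direction, 48.1-fold higher in females.

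Slc22a28 was higher in CAST than in B6 in both sexes when matched by order. The excess in CAST was 5.82-fold in males (log2 -2.54 ± 0.27, adjusted p = 2.35e-08) and 13.4-fold in females (log2 -3.74 ± 0.30, adjusted p = 1.88e-10), with no overlap between strains in either sex. The interaction was 1.199 ± 0.39 with an adjusted p of 0.118. As labelled, males differed in the opposite direction (log2 7.40 ± 0.37, adjusted p = 5.35e-16), the difference in females was -0.70 (adjusted p = 0.0161, under 2-fold), and the interaction was 8.10 ± 0.45 (adjusted p = 2.26e-12).

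Slc22a30 was the most abundant member in B6 males. They had 49.6, 46.7, 44.8, 52.0 and 47.0 FPKM, and the B6 females 35.4, 31.6, 39.6, 41.5 and 34.3. Every B6 male exceeded every B6 female, by 1.32-fold (log2 0.40 ± 0.08, adjusted p = 0.00397), which is under the 2-fold limit for a call. Matched by order, CAST livers had far less: 0.601, 0.904, 0.763, 0.589 and 0.619 in males and 0.343, 0.453, 0.470, 0.106 and 0.113 in females. These rest on 24 to 137 reads a liver in males and 6 to 61 in females. B6 exceeded CAST 63.4-fold in males (log2 5.99 ± 0.21, adjusted p = 1.08e-17) and 102-fold in females (log2 6.67 ± 0.22, adjusted p = 3.61e-18). The sex difference in CAST was 2.13-fold (log2 1.09 ± 0.32, adjusted p = 0.049), at the edge of the threshold. The call was lost when any of 8 of the 10 CAST livers was left out, with an adjusted p of up to 0.132. As labelled, B6 exceeded CAST 21.1-fold in males and 14.9-fold in females, in the same direction, and the sex difference in CAST was -0.09 ± 0.15 (adjusted p = 0.812).

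**Figure D2:**
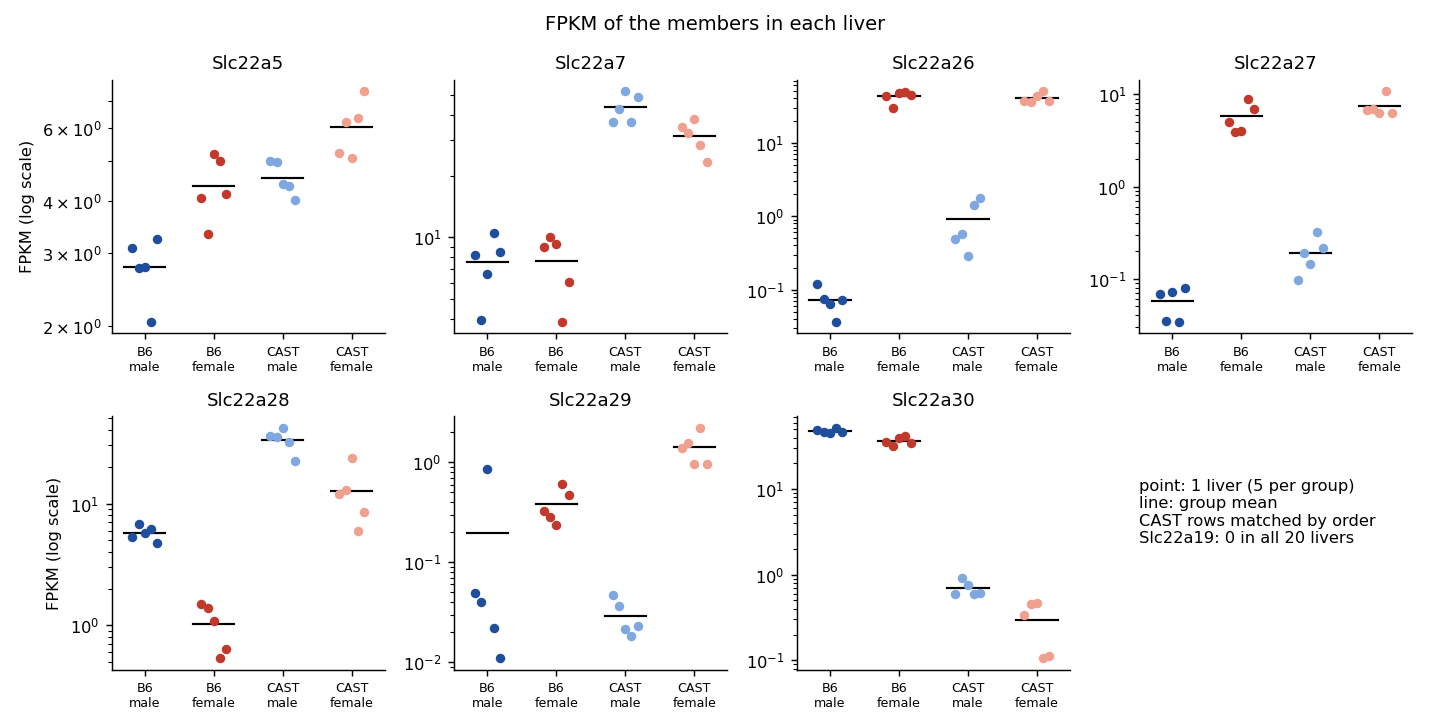
FPKM on a log scale for 7 members in each liver, by group, with CAST rows matched by order. Points are single livers, 5 per group, and black lines are group means. Slc22a26 and Slc22a27 were near 0.1 FPKM in B6 males and above 3 in every female, while Slc22a30 was above 30 in every B6 liver and below 1 in every CAST liver.

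Matched by order, Slc22a28 and Slc22a30 had opposite strain differences, and as 98.8% identical copies they were also summed, a choice made after the data were seen. The sum was 53.8 ± 2.96 FPKM in males and 37.5 ± 3.80 in females of B6, and 34.2 ± 7.18 in males and 12.95 ± 6.92 in females of CAST (SD, n = 5 each). It was higher in B6 in both sexes, by 1.54-fold in males (log2 0.62 ± 0.22, adjusted p = 0.0287, under the 2-fold limit) and by 2.65-fold in females (log2 1.41 ± 0.22, adjusted p = 1.34e-05). The sum was also higher in males of both strains, 1.44-fold in B6 (adjusted p = 0.000257) and 2.47-fold in CAST (adjusted p = 0.00324). Slc22a28 took 10.9 ± 1.29% of the summed reads in males and 2.80 ± 1.29% in females of B6, and 97.9 ± 0.44% in males and 97.8 ± 0.83% in females of CAST. The share differed between strains in each sex, and between the sexes in B6, with an exact two-sided permutation p of 0.00794, the smallest that 5 against 5 allows, and 0.0106 adjusted over the 4 comparisons. In CAST the sexes differed by 0.101 percentage points (exact permutation p = 0.77).

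The sum of the other close pair, Slc22a27 and Slc22a29, was 0.254 ± 0.379 FPKM in males and 6.15 ± 2.27 in females of B6, and 0.221 ± 0.0755 in males and 8.81 ± 2.42 in females of CAST, matched by order. Females exceeded males 25.2-fold in B6 (log2 -4.66, adjusted p = 6.01e-06, and -6.06 without B6 male 3) and 42.3-fold in CAST (adjusted p = 5.40e-12). In females the strains differed by -0.62 on the log2 scale with a 95% interval from -1.297 to 0.050. In males the value was 0.11 with B6 male 3 and -1.26 (adjusted p = 0.022) without it.

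Slc22a27 and Slc22a28 were summed as well. In B6 the sum hid 2 large opposite differences: it was 5.82 ± 0.756 FPKM in males and 6.79 ± 1.77 in females, a log2 difference of -0.28 with a 95% interval from -0.59 to 0.021 (adjusted p = 0.283). Slc22a27 made up 1.11 ± 0.53% of the summed reads in B6 males and 84.1 ± 8.66% in B6 females, without overlap. Matched by order, the CAST sum was 33.7 ± 7.08 in males and 20.05 ± 5.84 in females, 1.54-fold higher in males (adjusted p = 0.0346, under the 2-fold limit), and Slc22a27 made up 0.656 ± 0.358% and 41.1 ± 16.02%. Its share in females ranged from 21.9% in CAST female 3 to 65.9% in CAST female 4, and CAST females lay below all B6 females, of which the lowest was 75.2%. The sex difference of the share in each strain and the strain difference in females each had an exact permutation p of 0.00794 (0.0106 adjusted over the 4 comparisons). The strain difference in males was 0.456 percentage points (exact permutation p = 0.151). As labelled, the CAST sum was 2.21-fold higher in males (adjusted p = 0.00326), and the share was 99.9 ± 0.04% in males and 86.6 ± 9.14% in females.

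**Figure D3:**
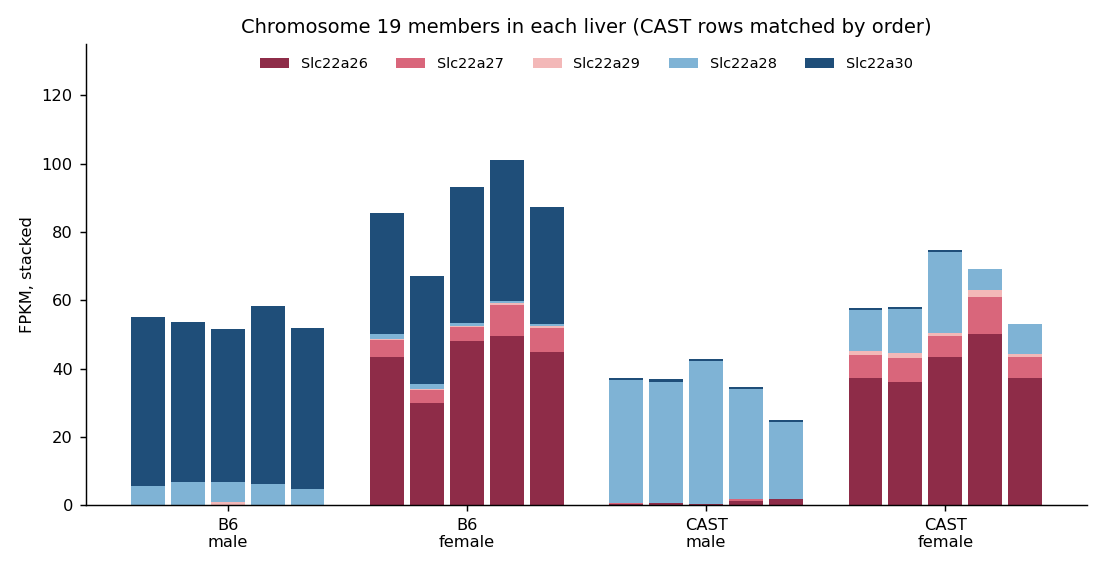
Stacked FPKM of 5 chromosome 19 members in each liver, 1 bar per liver and 5 bars per group, with CAST rows matched by order; Slc22a19 is listed at 0 and not drawn. Slc22a30 fills most of each B6 male bar, Slc22a28 most of each CAST male bar, and Slc22a26 is visible mainly in females of both strains.

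For the chromosome 19 members as a whole, matched by order, the summed level was 54.1 ± 2.73 FPKM in males and 86.8 ± 12.6 in females of B6, and 35.4 ± 6.55 in males and 62.5 ± 9.03 in females of CAST. Slc22a30 was 88.7% of the total in B6 males and 42.3% in B6 females, against 2.002% and 0.474% in CAST. Slc22a28 was 94.4% in CAST males and 19.96% in CAST females, against 10.7% and 1.25% in B6. Slc22a26 was 49.5% in B6 females and 65.4% in CAST females. The summed reads were 1.61-fold higher in females than in males in B6 (adjusted p = 7.60e-05) and 1.89-fold in CAST (adjusted p = 0.000133), and 1.501-fold higher in B6 than CAST males (adjusted p = 0.000419) and 1.28-fold higher in B6 than CAST females (adjusted p = 0.0224). None of these 4 reached 2-fold, and the interaction was 0.23 with a 95% interval from -0.12 to 0.58. As labelled, the sum was instead higher in CAST, by 2.34-fold in males (adjusted p = 1.92e-11), because it then took in the row labelled Slc22a19.

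Slc22a19 encodes the anion transporter Oat5 of the kidney. No read was counted for it in any of the 10 B6 livers, which allows up to 3 reads a library, or 0.25 CPM (counts scaled to library size) in the shallowest B6 female. Matched by order, it was listed at 0 in all 10 CAST livers too. As labelled, the CAST row held 87.4 to 101 FPKM, at least 2231-fold higher than the B6 floor of 3 reads in males and at least 1701-fold in females, with a sex difference of -0.09 ± 0.09 (adjusted p = 0.652). By order that row belongs to another gene.

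Slc22a7 encodes OAT2, an organic anion transporter of the sinusoidal membrane of hepatocytes. Its row keeps its place, so both readings share its levels. The B6 males had 8.19, 3.93, 6.64, 10.5 and 8.51 FPKM and the B6 females 8.95, 10.1, 9.32, 3.87 and 6.04. The CAST males had 36.8, 42.5, 52.2, 36.7 and 49.0 and the CAST females 34.8, 32.4, 38.1, 28.3 and 23.3. Every CAST liver exceeded every B6 liver, 5.68-fold in males (log2 -2.51 ± 0.23, adjusted p = 5.02e-10) and 4.37-fold in females (log2 -2.13 ± 0.23, adjusted p = 1.07e-08) as labelled. With the other CAST rows matched by order, the fitted folds were 5.80 and 4.39. The sexes were close in B6 (log2 -0.00, 95% interval -0.50 to 0.497), and in CAST males had 1.31-fold more (log2 0.39 ± 0.14, adjusted p = 0.133) with overlapping ranges. The interaction was -0.38 ± 0.31 (adjusted p = 0.672).

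Slc22a5 had small differences of the same direction in both strains. The B6 males had 3.09, 2.76, 2.77, 2.05 and 3.24 FPKM and the B6 females 4.09, 3.34, 5.21, 5.01 and 4.18. The CAST males had 5.00, 4.99, 4.39, 4.36 and 4.03 and the CAST females 5.25, 6.22, 5.09, 6.35 and 7.37. Males and females did not overlap in either strain, with 1.53-fold more in B6 females (log2 -0.62 ± 0.13, adjusted p = 0.00578) and 1.39-fold more in CAST females (log2 -0.48 ± 0.10, adjusted p = 0.00381). CAST exceeded B6 1.603-fold in males (adjusted p = 3.66e-05) and 1.47-fold in females (adjusted p = 0.000378) as labelled, so all 4 differences passed the adjusted p and none passed 2-fold. In the order of levels CAST females came first and B6 males last, and the ranges of CAST males and B6 females overlapped.

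Read as counts of members, 3 of the 7 tested were called for sex in B6 (Slc22a28 higher in males, Slc22a26 and Slc22a27 higher in females), against 2.4% of all 25690 genes tested. A call needs a fold above 2 and an adjusted p under 0.05. With no limit on the fold, 5 of the 7 passed, against 7.55% of all genes. In CAST 3 of 8 were called as labelled and 5 of 7 matched by order (Slc22a28 and Slc22a30 higher in males, Slc22a26, Slc22a27 and Slc22a29 higher in females), against 2.05% of 24722 genes in either reading. For strain, 7 of 8 members were called in males and 6 of 8 in females as labelled, against 23.8% and 24.4% of all genes. Matched by order, 6 of 7 were called in males and 4 of 7 in females, against 16.7% and 17.3%. The interaction was called for 3 of 8 members as labelled (Slc22a26, Slc22a27 and Slc22a28), against 2.28% of all genes, and for 2 of 7 matched by order (Slc22a26 and Slc22a29), against 2.03%. Members went both ways in sex, with a median log2 difference of -0.62 in B6, and of -0.09 as labelled and -0.48 matched by order in CAST, beside medians of 0.02 and -0.01 over all genes in B6 and CAST. The values -0.62 and -0.48 are those of Slc22a5.

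**Figure D4:**
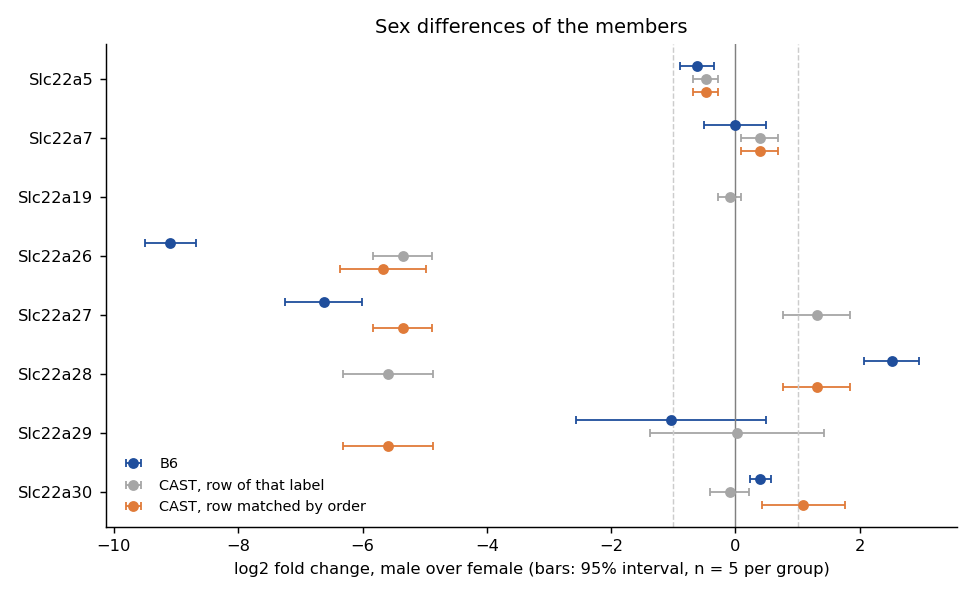
Fitted log2 fold change of males over females for each member in B6 (blue), in the CAST row of that label (grey) and in the CAST row matched by order (orange), with 95% intervals from 5 livers per group; dashed lines mark 2-fold. For Slc22a27 and Slc22a28 the grey points lie on the other side of 0 from the blue ones and the orange points on the same side.

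In the order of levels within a group, which FPKM allows between genes, Slc22a30 led in B6 males, above Slc22a7 and Slc22a28, whose ranges overlapped. In B6 females Slc22a26 and Slc22a30 led with overlapping ranges. Matched by order, Slc22a7 and Slc22a28 led in CAST males with overlapping ranges, and in CAST females Slc22a26 came first, overlapping with Slc22a7. As labelled, the row Slc22a19 led in both CAST groups, followed by Slc22a7 and Slc22a27, which overlapped in males.

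The livers were rich in hepatocyte transcripts, with a summed FPKM of 8 hepatocyte markers, Alb among them, of 19570 to 20687 in males and 24757 to 30000 in females of B6, and 17040 to 18674 in males and 20163 to 25732 in females of CAST. The 8 kidney tubule markers summed to at most 0.177 FPKM in any liver, and Umod and Kap were listed at 0 in all 20. Of 8 markers of Kupffer and blood immune cells, 7 were listed, and as labelled their sum was 12.04 to 23.4 in males and 29.1 to 33.5 in females of B6, and 4.87 to 11.6 in males and 7.16 to 23.4 in females of CAST. The 6 stellate cell markers summed to 17.4 to 25.8 in B6 males and 31.2 to 36.1 in B6 females. The 6 endothelial markers summed to 17.5 to 21.3 in B6 males and 22.2 to 28.3 in B6 females. In B6 the hepatocyte, immune, stellate and endothelial sums were higher in females without overlap, and in CAST the hepatocyte sum was. Their part in the sex differences of the members was not tested. In whole liver RNA, fewer cells of a type and less RNA per cell cannot be told apart.

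Among the other 17 Slc22 genes, none of the 12 tested was called for sex in B6, against 2.4% of all genes. In CAST 2 of 14 were called as labelled, in the rows Slc22a23 and Slc22a3, which by order belong to Slc22a26 and Slc22a30, and none of 15 matched by order. Of all genes, 2.05% were called in either reading. For strain, 10 of 16 were called in males as labelled, with Slc22a17, Slc22a22 and Slc22a18 among those at the lowest adjusted p, against 23.8% of all genes, and 2 of 15 matched by order, against 16.7%. The matched count was 1 with filterByExpr or limma on log2(FPKM + 0.1) and 0 with limma on log2(FPKM + 1). The 2 genes called when matched by order were Slc22a3, the extraneuronal monoamine transporter OCT3, at 0.398 ± 0.0809 FPKM in B6 males and 1.27 ± 0.318 in CAST males (log2 -1.71, adjusted p = 1.50e-08), and Slc22a2, with no count in B6.

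Other carriers of organic anions put these differences in context, and only 1 of these 21 names changes place. Of 9 uptake transporters of organic anions and bile acids, 1 of 7 tested in B6 and 1 of 8 in CAST was called for sex, against 2.4% and 2.05% of all genes. In both cases it was Slco1a4, an organic anion transporting polypeptide. It was higher in females, at 8.24 ± 3.03 FPKM in males and 21.7 ± 8.90 in females of B6, and 3.59 ± 1.52 in males and 13.6 ± 5.18 in females of CAST. Of 12 efflux transporters, 2 of 11 tested in B6 and 3 of 12 in CAST were called for sex. Abcg2 was higher in males in B6 (log2 1.16, adjusted p = 5.12e-08) and CAST (1.09, adjusted p = 4.26e-07), and Abcb1a was higher in females in both. With limma at either pseudocount, 1 efflux gene in place of 3 was called for sex in CAST, and 2 uptake genes in place of 1. For sex in B6, limma on log2(FPKM + 1) called 1 efflux gene in place of 2. For strain in males the calls were Slc10a2, the bile acid transporter of the apical face of ileal and bile duct cells, higher in B6 (log2 5.45 as labelled), Slco1a4, and among efflux genes Slc51b, Abcb1a and Abcc4 in both readings, with Abcc1 called as labelled only. As labelled these were 2 of 7 uptake and 4 of 11 efflux genes, against 23.8% of all genes. Matched by order they were 2 of 7 and 3 of 11, against 16.7%. In limma on log2(FPKM + 1) only 1 efflux gene was called in either reading.

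Beside the carnitine transporter Slc22a5, 9 of 10 genes of carnitine synthesis and use were tested. None was called for sex in B6 and 1 in CAST, against 2.4% and 2.05% of all genes. In CAST Crat, carnitine acetyltransferase, was higher in females (2.12 ± 0.480 against 4.13 ± 1.16 FPKM, log2 -1.03, adjusted p = 0.000948), a call that was lost with library size alone and with limma at either pseudocount, where 0 genes of the list were called. Crot, the peroxisomal carnitine octanoyltransferase, was higher in B6 than in CAST in males (121 ± 10.6 against 55.9 ± 8.26 FPKM) and females (169 ± 18.8 against 63.4 ± 6.78), the opposite direction to Slc22a5. Slc25a20, the mitochondrial carrier of acylcarnitines, was called higher in B6 as labelled only.

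The genes with the most similar profile were found by the root mean square difference of log2(FPKM + 0.1), centred per gene, over the 20 livers. For Slc22a5 they included Idh2 (0.161) and Ilvbl (0.185) in both readings. For Slc22a7 the nearest was Ppp1r14a (0.309), followed by Zfp13 (0.325) and Nt5c3b (0.331) as labelled and by Them7 (0.333) and Mx2 (0.334) matched by order. Matched by order, Slc22a26 had Slc22a27 (1.14) and Cyp2b9 (1.17) among its nearest 3, and Slc22a27 was nearest to Cux2 (0.617), Cyp3a16 (0.838) and Hao2 (0.932), out of 9175 genes compared. Slc22a28 was nearest to Susd4 (0.371), Cyp7b1 (0.534) and Serpine2 (0.633), Slc22a29 to Prom1 (0.812), Gstt3 (0.814) and Acot4 (0.833), and Slc22a30 to Gm4951 (0.475), Rarres1 (0.718) and Fam213b (0.765). As labelled, the nearest genes were Slc25a54 for Slc22a19 (0.122), Cyp2b13 for Slc22a26 (0.608), Eci3 for Slc22a27 (1.18), Tmem97 for Slc22a28 (1.15) and Pdcd11 for Slc22a30 (0.221), out of 9629.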

How the data were processed

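Liver polyA RNA of 20 mice was sequenced by the authors as paired reads of 50 bases, mapped with TopHat2 to mm9 (B6) or to mm9 carrying CAST variants, and uniquely mapped reads were counted with featureCounts at an exon overlap of at least 1 base. Whether counting used strand is not given in the sources used here. The deposited counts stand in 1 table per strain and the deposited FPKM of the authors in 1 table. These tables also hold the authors' own fold changes and p-values, which were not used, among 24 columns left unused. The strain entry of the labels is crossed for B6 females and CAST males, and sample titles were followed.

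Counts were tested with edgeR 4.0.16 (quasi-likelihood test, TMM, genes with at least 1 read, Benjamini-Hochberg over all genes) in R 4.3.3, per strain for sex and over all 20 livers for strain and interaction. A call needs a fold above 2 and an adjusted p under 0.05 (the interaction only the latter). Errors of log2 differences, called SE, are the size of the difference divided by the square root of the test's F statistic. The 95% intervals are computed from them with the t quantile at the test's degrees of freedom (17.6 to 26.3). For strain tests, a gene with counts for only 1 strain was kept, with counts of 0 in the other, where its FPKM there was 0. Where that FPKM was above 0 or not known the gene was left out, which took out 2028 genes (1921 with CAST rows matched by order). Shares of reads were compared by exact permutation tests. FPKM levels were described, and likeness used a pseudocount of 0.1. The coding sequences of Slc22a27 to Slc22a30 were aligned with MAFFT v7.526 for the 60-base windows and the columns that separate the pairs. Percent identities and the differing bases of the promoters came from global pairwise alignments with Biopython 1.88. Simulated data for sex in B6, with 200 genes changed 4-fold among 25363, gave 200 of them and 10 unchanged genes as called. The same numbers were 198 and 22 of 24336 genes for sex in CAST, 198 and 4 of 25586 for strain in males, and 191 and 13 of 25579 for the interaction. The changed genes were drawn from those with a mean of at least 20 counts, so these numbers do not cover rows with fewer reads. Alternatives were DESeq2 1.42.0, its size factors, library size alone, filterByExpr, the edgeR exact test, limma 3.58.1 on log2(FPKM + 0.1) or log2(FPKM + 1), no fold threshold, the replicate block and each liver left out.

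All 8 members are named, and of each other list at most the 4 called genes with the lowest adjusted p in a comparison. Genes like a member had a mean of at least 1 FPKM in some group, as had the member. A few genes that these rules name are not reported here. Members and lists were chosen with earlier results of these data known. Y-linked check genes were listed at 0 in every liver, so they could not check the sexes. Each library is 1 mouse, p-values measure the spread between these mice, and count floors cover counting error only.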

Additional observations from a re-analysis of the deposited data

Results flagged for a closer look

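Slc22a29 in B6 male 3 stood apart from the other 4 B6 males, at 0.858 FPKM against 0.0110 to 0.0493, by Dixon's test. The CAST row labelled Slc22a26, matched to Slc22a27 by order, stood apart in CAST female 4 at 11.6 FPKM. Chance alone marks about 1 in 20 groups in this way.

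The sex difference differed between the strains, by a test of the interaction in edgeR's quasi-likelihood fit (log2, B6 minus CAST). As labelled, this held for Slc22a26 (-3.74, adjusted p = 6.95e-07), Slc22a27 (-7.93, adjusted p = 3.83e-11), Slc22a28 (8.10, adjusted p = 2.26e-12), the sum of Slc22a27 and Slc22a28 (-1.41, adjusted p = 0.0116) and the sum of the chromosome 19 members (-0.72, adjusted p = 0.00292). Matched by order, it held for Slc22a26 (-3.43, adjusted p = 0.00016) and Slc22a29 (4.52, adjusted p = 0.0189), and the latter value was 2.21 (adjusted p = 0.0954) without B6 male 3.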

How the results depend on the processing

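The names of the CAST rows mattered more than any other choice, an alternative chosen after seeing the data. Matched by order, the members called for sex in CAST numbered 5, and among others, the following log2 differences changed direction or call: sex in CAST for Slc22a27 (-5.35), Slc22a28 (1.31), Slc22a29 (-5.59), Slc22a30 (1.09), the sum of Slc22a27 and Slc22a28 (0.62) and the chromosome 19 sum (-0.92); strain in males for Slc22a28 (-2.54) and the chromosome 19 sum (0.59); strain in females for Slc22a26 (-0.019), Slc22a27 (-0.46, call lost), Slc22a28 (-3.74, call gained), Slc22a29 (-1.98) and the chromosome 19 sum (0.36); and the interaction for Slc22a27 (-1.28, call lost), Slc22a28 (1.199, call lost), Slc22a29 (4.52), Slc22a30 (-0.68), the sum of Slc22a27 and Slc22a28 (-0.91) and the chromosome 19 sum (0.23). The share of Slc22a27 then differed by -40.5 percentage points for sex in CAST, 0.456 for strain in males and 43.0 for strain in females.

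As labelled, 5 members passed for sex in B6 with no fold threshold, against 7.55% of all genes. The summed Slc22a27 and Slc22a28 fell under 2-fold for strain in females with library size alone (-0.98), the replicate block (-0.99), and limma with a pseudocount of 0.1 (-0.90) or 1 (-0.82), and ranged from -1.24 to -0.78 with each liver left out. Slc22a29 for strain in males ranged from -0.21 to 2.48.

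Matched by order, limma with a pseudocount of 1 called 3 members for strain in males. The main fit called 6 of 7, and 16.7% of all genes. The interaction was called for 4 members with the replicate block, which added Slc22a27 (-1.27, adjusted p = 0.0476) and Slc22a28 (1.16, adjusted p = 0.0234), 1 with limma at either pseudocount, and 1 to 3 with each liver left out. The main fit called 2 of 7, and 2.03% of all genes. The shares of all genes called in the other fits are not given here, so these counts have no background of their own. The interaction of the summed Slc22a27 and Slc22a28 passed with DESeq2 size factors, filterByExpr and DESeq2 (each -0.94), library size alone (-1.01) and the replicate block (-0.94), and ranged from -1.11 to -0.77 with each liver left out. Ranges were -1.004 to -0.83 for the chromosome 19 sum and sex in CAST, -1.26 to 0.40 for Slc22a27 and Slc22a29 and strain in males, and -1.16 to -0.61 for Slc22a28 and Slc22a30 and the interaction, whose call appeared only without CAST female 3 (adjusted p = 0.00435). The cause of these changes was not tested.

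Replicate numbers do not mark shared animals. The authors state that mice and samples were processed in groups that held every strain and sex. Whether the numbers mark such groups is not given in the labels. Same-numbered livers correlated in their deviations at -0.107 to 0.358 for sex in B6 (1 of 5 pairs over 0.1), -0.107 to 0.376 for sex in CAST (4 of 5), -0.140 to -0.017 for strain in males (0 of 5) and 0.0457 to 0.262 for strain in females (4 of 5), and in no comparison were all 5 pairs over 0.1. As a hint from the data only, 1, 3, 0 and 3 livers correlated best with their own number for sex in B6, sex in CAST, strain in males and strain in females. The block also made a call of Slc22a29 for sex in B6 (-1.99, adjusted p = 5.40e-08). Low counts limit Slc22a26, Slc22a27 and Slc22a29 in males. They also limit Slc22a30 in CAST matched by order, at 24 to 137 reads a liver in males and 6 to 61 in females.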
